A study of Rattus norvegicus with 6 samples.

Results

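The 10 genes described here are Fos, Fosb, Fosl1 and Fosl2 (the Fos family), Jun, Junb and Jund (the Jun family), Atf3, Egr1 and Nr4a1, matched by symbol in the gene lists of the deposited count matrices. They were 10 of 25399 genes listed, and each had exactly 1 entry. The study sequenced single cells from Sprague Dawley rat brain (labelled as postnatal day 21; the title of the series places the tissue in the pons) with a droplet method that counts the 3′ ends of transcripts, in which each captured molecule carries a unique molecular identifier (UMI). There were 3 libraries from sham rats and 3 from rats with a pontine infarction, that is, a stroke in the pons; no source used here gives the interval between infarction and sampling, any pooling of animals or the dissociation protocol. No allele, transgene or drug is named for either group. Raw UMI counts of these genes were compared across cell classes within each group, and between groups within each class.

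Fos and Jun proteins form the dimeric transcription factor AP-1: a Fos protein has to pair with a Jun protein through a leucine zipper, whereas Jun proteins can also pair with each other and with ATF proteins. Most of these genes are immediate early genes, which means that a stimulus such as growth factor, injury, depolarization or stress switches on their transcription within minutes through kinases and factors already present in the cell. Their transcripts are short-lived, so a level at one moment reports recent stimulation. Enzymatic dissociation of tissue is itself known to induce them, and no label here separates induction in the animal from induction during handling. In the brain, Fos and Egr1 are widely used to mark recently active neurons, and Atf3 to mark injured neurons and stressed or inflammatory cells.

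After filtering, 37853 cells were kept (5873 to 7255 per library) from libraries of 56416475 to 69924334 UMIs, with a median of 7287 to 9562 UMIs per kept cell. The median share of mitochondrial UMIs was 9.66 to 10.2% in the sham libraries and 5.59 to 7.81% in the infarction libraries. Cells were clustered with the 10 genes and the other immediate early genes left out, so these genes did not place any cell, and clusters were named "X-like" from marker genes. Cell yield by class was so uneven that many comparisons between groups could not be made: 7716 smooth muscle-like and 3749 pericyte-like cells came from sham and 2 and 11 from infarction, while 4471 neutrophil-like and 6659 macrophage-like cells came from infarction and 69 and 423 from sham. Microglia-like cells (3279 sham, 2258 infarction), T or NK cell-like cells (337 and 288), oligodendrocyte-like cells (261 and 472) and endothelial-like cells (349 and 151) had at least 20 cells in all 6 libraries, as did the macrophage-like class. In these libraries labelled brain, neuron-like cells numbered 229 and 42, while smooth muscle-like cells made up 37.2 to 48.4% of the kept cells of a sham library. Every pair of libraries shared 8 to 21 cell barcodes, at most 0.313% of the deposited barcodes of the smaller library, and replicates of a group differed from each other by far more than counting noise.

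RefSeq promoter windows (build GRCr8, 250 bases before the annotated start) matched 7 of the 10 genes (not Fos, Jun or Atf3). The windows were searched on both strands for the cyclic AMP response element CRE (TGACGTCA), which binds CREB and ATF proteins, its core (TGACG), the AP-1 site itself (TGANTCA), the CArG box of serum response factor, and the TATA box (TATAAA). Among all 27457 promoter windows of this length in the table, 1.70% held a CRE, 19% a core, 6.36% an AP-1 site, 1.5% a CArG box and 13.1% a TATA box. No window of the 7 genes held the AP-1 letters. The sequences of 4 genes are shown because their levels had contrasting patterns: Junb and Nr4a1 were highest in sham smooth muscle-like cells, Jund was not, and Fosl1 was near 0 outside a few infarction classes. Junb (chr19:40080876-40081125, plus strand) held 1 core starting 155 bases and a TATA box 49 bases before the start. Jund (chr16:18769772-18770021, minus strand) held the only complete CRE of the 7 windows, 221 bases before the start (2 overlapping cores, at 221 and 218 bases, lie within it), and another core at 98 bases. Nr4a1 (chr7:134259888-134260137, plus strand) held 4 cores, at 246, 226, 82 and 53 bases. Fosl1 (chr1:212183635-212183884, plus strand) held cores at 148 and 84 bases. Each is printed 5′ to 3′ on the strand of its gene, with matched letters in capitals (a core on the other strand reads CGTCA).
Junb: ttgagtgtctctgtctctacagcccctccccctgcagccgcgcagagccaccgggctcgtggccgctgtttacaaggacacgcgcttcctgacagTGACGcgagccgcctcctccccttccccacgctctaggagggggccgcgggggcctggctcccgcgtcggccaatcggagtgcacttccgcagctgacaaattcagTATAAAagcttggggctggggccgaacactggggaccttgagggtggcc
Jund: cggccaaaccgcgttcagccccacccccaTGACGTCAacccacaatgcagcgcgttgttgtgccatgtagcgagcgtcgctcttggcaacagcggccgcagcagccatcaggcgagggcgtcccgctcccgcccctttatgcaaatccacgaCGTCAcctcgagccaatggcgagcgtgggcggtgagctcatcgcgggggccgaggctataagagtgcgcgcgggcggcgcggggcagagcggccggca
Nr4a1: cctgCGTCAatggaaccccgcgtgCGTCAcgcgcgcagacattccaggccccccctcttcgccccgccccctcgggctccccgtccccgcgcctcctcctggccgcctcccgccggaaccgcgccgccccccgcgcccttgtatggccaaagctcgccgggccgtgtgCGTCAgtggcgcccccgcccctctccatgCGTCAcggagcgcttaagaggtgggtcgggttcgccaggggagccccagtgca
Fosl1: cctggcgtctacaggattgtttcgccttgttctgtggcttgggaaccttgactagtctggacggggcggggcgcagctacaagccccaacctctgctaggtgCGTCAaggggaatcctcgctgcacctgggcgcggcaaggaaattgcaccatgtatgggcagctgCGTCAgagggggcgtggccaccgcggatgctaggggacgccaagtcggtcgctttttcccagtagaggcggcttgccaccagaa
Of the other 3 windows, that of Egr1 held CArG boxes 105 and 83 bases before the start and cores at 135 and 66 bases, that of Fosb a TATA box at 180 bases, and that of Fosl2 none of these motifs. A match is a description of letters, and occupancy was not measured.

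Smooth muscle-like cells of the sham libraries held the highest levels of most of these genes among the classes with at least 20 cells in all 3 sham libraries. Levels are given as UMIs per 1000000 UMIs (CPM) of all cells of a class in a library, in the order sham 1, 2 and 3. Fos, the main Fos partner of acute AP-1, stood at 3409.8, 4576 and 3894 CPM in smooth muscle-like cells. Its close relative Fosb, whose splice form delta-FosB is long-lived, stood at 261, 415 and 233 CPM. The partner Junb, which can hold back Jun activity, reached 3001, 3764 and 2939 CPM. Jun itself was at 1660.1, 2179.8 and 1820.4 CPM and Jund, the member expressed in most resting cells, at 527, 293 and 463 CPM. Egr1, a zinc finger factor induced through serum response factor, had 891, 1334 and 1171 CPM. The stress-responsive repressor Atf3 had 463, 945 and 694 CPM and the orphan nuclear receptor Nr4a1 (Nur77) 581, 768 and 553 CPM. Sham 2 was the highest of the 3 libraries for each of these genes except Jund, for which it was the lowest. Fosl1 and Fosl2, the Fra proteins of later AP-1 complexes, were near 0 here: Fosl1 at 0.362, 0.583 and 0.416 CPM and Fosl2 at 0.181, 0.0777 and 0.227 CPM. Summed over the 10 genes, the class held 10795, 14276 and 11768 CPM.

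Across the sham classes the order of levels differed between genes. For Fos, smooth muscle-like cells (3959.8 ± 586 CPM, SD, n = 3) stood beyond the spread of the next of the 11 classes with at least 20 cells in all 3 libraries, oligodendrocyte precursor-like cells (2268 ± 778). Below them each of fibroblast-like (1701 ± 359), pericyte-like (1567 ± 692), macrophage-like (1253 ± 396), microglia-like (931 ± 213), oligodendrocyte-like (819 ± 587), endothelial-like (411 ± 170.4), neuron-like (307 ± 151) and T or NK cell-like cells (255 ± 21.1) lay within the spread of the class above it. Astrocyte-like cells (43.6 ± 26.3) were lowest, beyond the spread of the rest. Egr1 had a clear first and second place, with 1132 ± 224 CPM in smooth muscle-like and 620.0 ± 46.3 in fibroblast-like cells, ahead of oligodendrocyte precursor-like cells at 428 ± 77.6. Atf3 was 701 ± 241 CPM in smooth muscle-like cells, and the next class, fibroblast-like cells, had 189 ± 30.5. Oligodendrocyte precursor-like cells joined high Fos with almost no Atf3, at 12 ± 0.955 CPM. For 3 genes, smooth muscle-like cells were not set apart. Jun was nearly as high in microglia-like (1768 ± 222 CPM) and macrophage-like cells (1626 ± 70.5) as in smooth muscle-like cells (1887 ± 266). Fosb was highest in oligodendrocyte precursor-like cells (570.2 ± 209.7 CPM), within the spread of fibroblast-like (405 ± 95.4) and smooth muscle-like cells (303 ± 97.9). Jund was highest in T or NK cell-like cells (785 ± 315 CPM), within the spread of microglia-like cells (571 ± 202), and smooth muscle-like cells were sixth (428 ± 121).

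**Figure D1:**
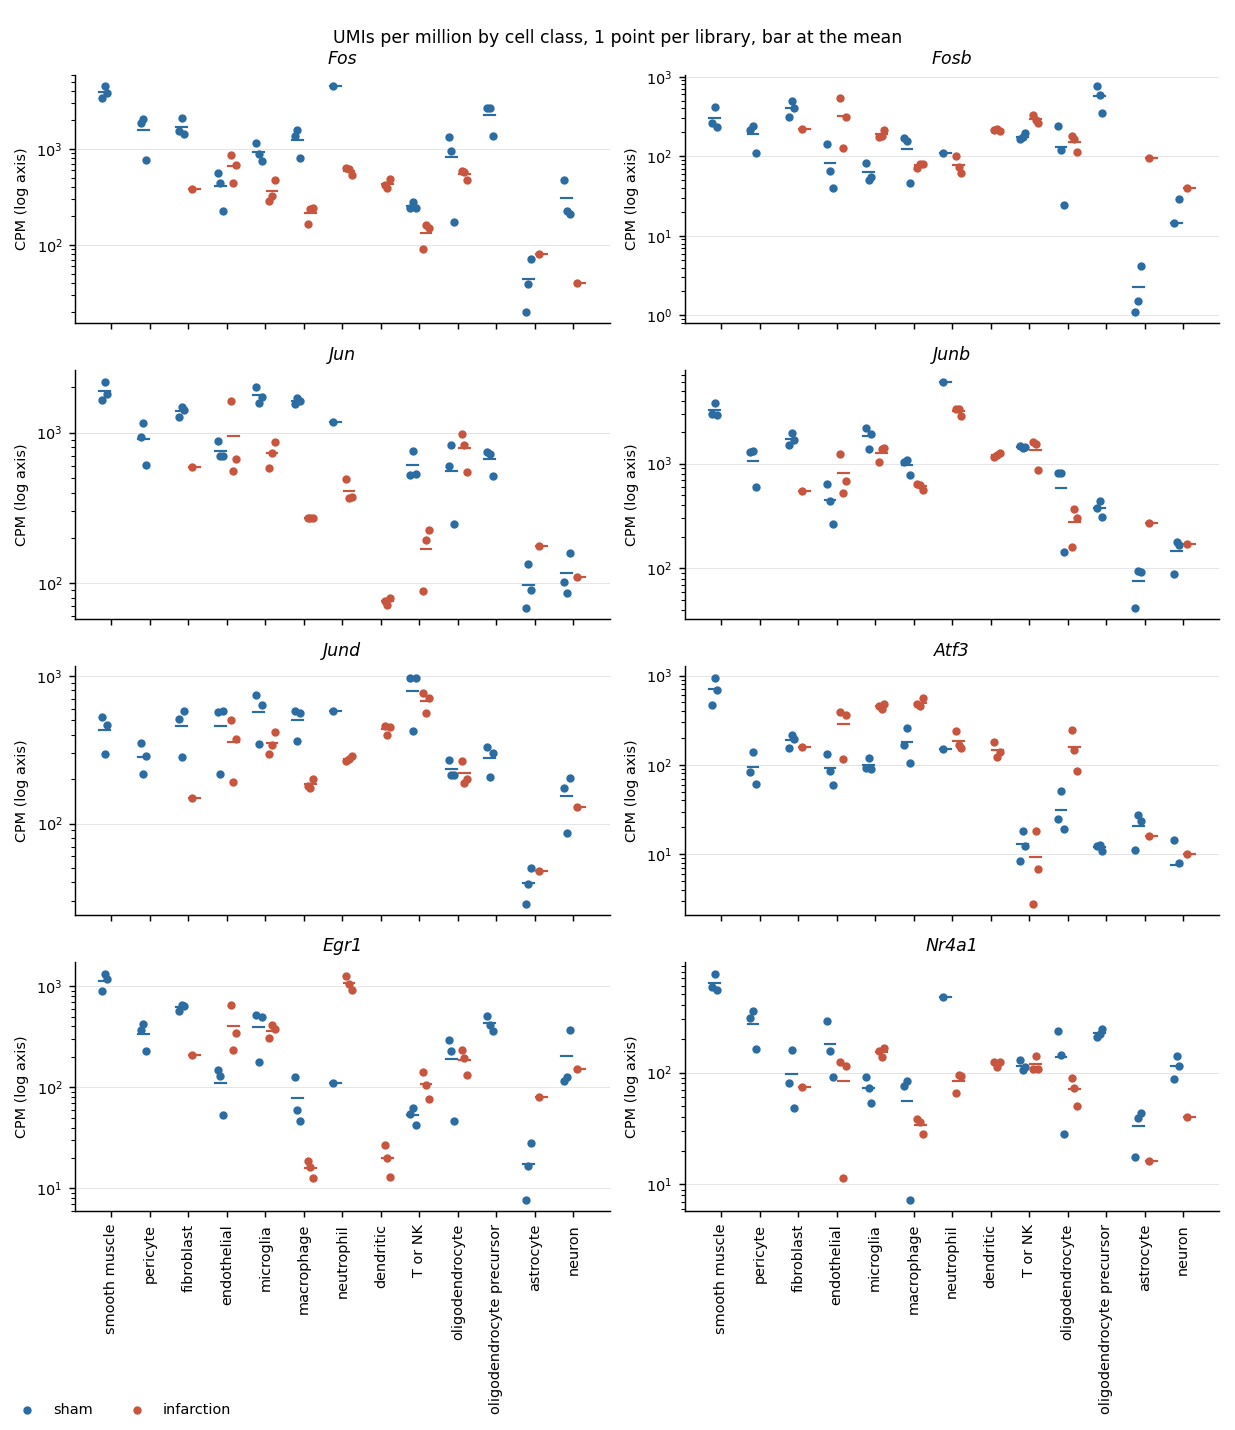
Levels of 8 of the genes by cell class, as CPM of the class sum on a logarithmic axis, with 1 point per library (sham blue, infarction red) and a bar at the mean. A library at 0, as for Fosb and Atf3 in 1 sham sum of neuron-like cells each, has no point but enters the mean. Smooth muscle-like cells, which only sham libraries hold in number, lead for Fos at 3959.8 ± 586 CPM among the classes with 3 sham points. Among the infarction points, neutrophil-like cells lead for Egr1 at 1074 ± 171 CPM, below the sham smooth muscle-like mean of 1132 CPM.

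Smooth muscle-like cells fell into 3 clusters, and pericyte-like cells, the contractile support cells of small vessels, into a pair with very different levels. Among the smooth muscle-like clusters Fos was 4848 ± 628 (n = 3) CPM in the largest (3857 cells, led by Rasd1), 2828 ± 571 (n = 3) in the cluster with elastin (Eln) among its leading genes and 4297 ± 389 (n = 2) in the cluster led by Cym. Egr1 in the same clusters was 1249 ± 224 (n = 3), 942 ± 221 (n = 3) and 1136 ± 277 (n = 2) CPM. So all 3 were high, with the elastin cluster lowest. The pericyte-like cluster led by Ndufa4l2 (2330 cells) had Fos at 2028 ± 788 (n = 3) CPM and Egr1 at 432 ± 106 (n = 3) CPM. This cluster, 62.1% of the sham pericyte-like cells, had 7 pericyte markers but also 5 smooth muscle markers. With doublets kept, a cluster led by Ndufa4l2 had 8 smooth muscle and 7 pericyte markers and took no class name. The one led by Atp13a5 (1419 sham cells) had Fos at 145 ± 74.9 (n = 3) CPM and Egr1 at 64.6 ± 9.31 (n = 3) CPM. Over the whole pericyte-like class, Fos was 1865, 2060.4 and 776 CPM and Junb 1287, 1332 and 596 CPM in sham 1, 2 and 3, so sham 3 was well below the other libraries, and the same held for Jun, Egr1, Atf3, Nr4a1 and Fosb.

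The same pattern was seen cell by cell. Because depth differs between classes, each cell was thinned to 2000 UMIs and shallower cells were left out (136 smooth muscle-like, 112 pericyte-like, 768 sham and 218 infarction microglia-like and 2445 infarction neutrophil-like cells). A Fos UMI was present in 91.2% ± 2.73 (95.9% unthinned) of smooth muscle-like cells, in 46.0% ± 14.8 (54.9% unthinned) of pericyte-like cells and in 44.4% ± 5.06 (50.5% unthinned) of sham microglia-like cells (mean and SD over 3 libraries). In astrocyte-like cells, the class with the least Fos, the share was 5.55% ± 3.24 (14.3% unthinned), which gives the scale of free RNA, with median depths of 4605 to 4754 UMIs against 8954 to 10005 in smooth muscle-like cells. Atf3 was found in 46.7% ± 8.97 (68.5% unthinned) of smooth muscle-like cells against 8.95% ± 0.865 (14.5% unthinned) of sham microglia-like cells, and Egr1 in 71.3% ± 4.96 (87.0% unthinned) of smooth muscle-like cells. At least 5 of the 10 genes were present in 72.2, 80.4 and 68.0% of thinned smooth muscle-like cells of sham 1, 2 and 3, and none of them in 1.43, 1.14 and 1.07%. High shares of single genes can alone give such counts. The counts therefore do not show whether the genes occur together. In pericyte-like cells at least 5 were present in 27.8, 29.2 and 11.3%, in fibroblast-like cells in 42.3, 44.6 and 41.2% and in sham microglia-like cells in 25.6, 12.1 and 19.1%. Within smooth muscle-like cells, Junb was found in 94.1, 95.7 and 92.2% of cells with a Fos UMI and in 37.9, 36.6 and 44.1% of cells without one. In pericyte-like cells these shares were 75.7, 76.4 and 59.8% and 18.7, 23.4 and 17.2%. Cells with Fos thus had Junb more often in both classes of the vessel wall. How much Fos spilled from smooth muscle-like cells could supply other sham classes was estimated from Tagln, Acta2 and Myh11. The median of their 3 levels relative to smooth muscle-like cells was taken, so the estimate is not an upper limit. It came to up to 15.3% of the Fos measured in microglia-like cells, 8.23% in macrophage-like, 10.1% in oligodendrocyte precursor-like and 36.8% in endothelial-like cells. In astrocyte-like and choroid plexus-like cells the estimate was 191% and 116% of the level measured, so Fos there cannot be told apart from free RNA. The estimate for Atf3 was 23.8% in microglia-like cells but 319.6% in oligodendrocyte precursor-like cells.

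**Figure D2:**
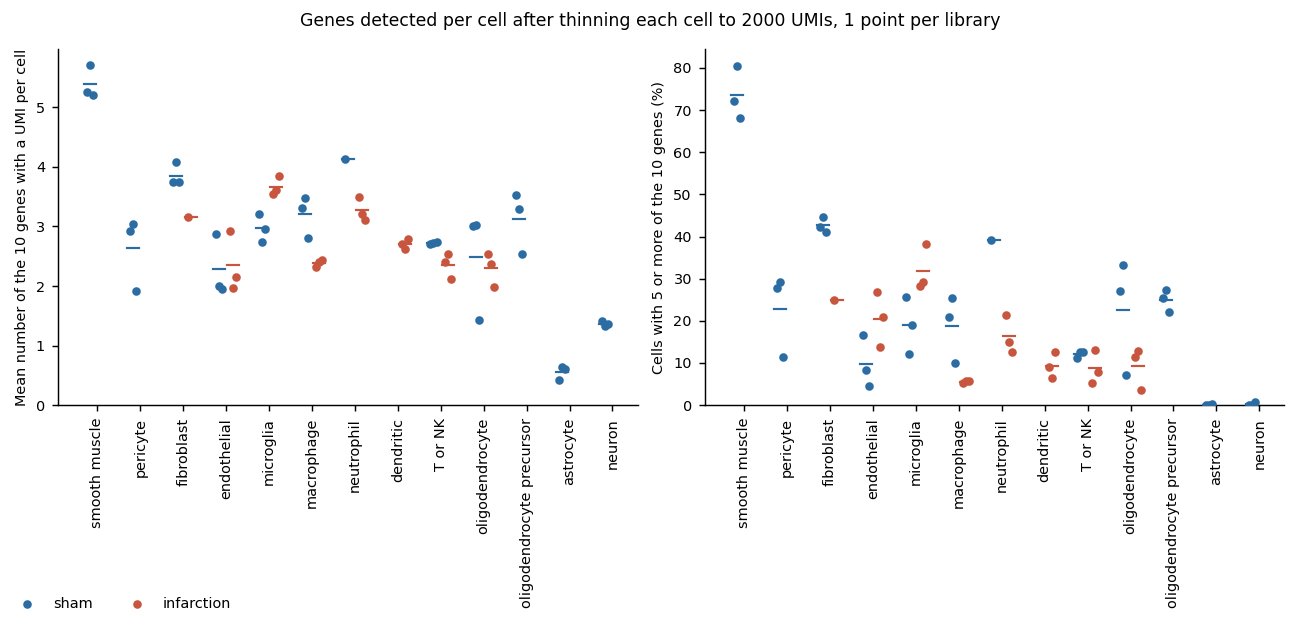
Detection of the 10 genes per cell after thinning each cell to 2000 UMIs, by class, with 1 point per library (sham blue, infarction red) and a bar at the mean: the mean number of the 10 genes with at least 1 UMI (left) and the percentage of cells with at least 5 of them (right). Sham smooth muscle-like cells lie at 72.2, 80.4 and 68.0% in the right panel, above all 3 sham microglia-like values of 25.6, 12.1 and 19.1%.

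Differences between sham classes were tested with both classes of each library in 1 fit across all genes (edgeR quasi-likelihood test, Benjamini-Hochberg adjusted p, threshold 0.05, library as a block). Against microglia-like cells, 5 of the 8 genes that passed the filter on low counts were higher in smooth muscle-like cells and 1 was lower, where 74.7% of all 12175 genes tested differed (39.2% higher and 35.5% lower). The log2 difference was 3.27 (SE 0.16, adjusted p = 2.91e-06) for Nr4a1, 2.89 (SE 0.15, adjusted p = 1.49e-06) for Atf3, 2.38 (adjusted p = 0.00821) for Fosb, 2.21 (SE 0.20, adjusted p = 0.000296) for Fos and 0.94 (adjusted p = 0.0254) for Junb. Jund was lower, by a log2 difference of -0.28 (adjusted p = 0.0176). Jun, at 0.20 (adjusted p = 0.254), and Egr1, at 1.73 (adjusted p = 0.0975), did not pass the test. Leaving out a library changed some calls: that for Junb was lost without sham 1, at 1.06, and that for Jund without sham 3, at -0.31; Egr1 passed without sham 2, at 1.03, and without sham 3, at 1.89. With the class replaced by the single cluster of homeostatic microglia-like cells that both groups hold (35, 32 and 1277 sham cells), 2 genes passed, and Fos was at 1.38, Atf3 at 1.66 and Nr4a1 at 2.15. Against pericyte-like cells, 6 of 8 were higher and none lower, where 56.0% of 11695 genes differed (28.1% higher and 27.8% lower). Most cells of the pericyte-like class were in the Ndufa4l2 cluster, which also had smooth muscle markers. Atf3 had the largest log2 difference at 3.29 (SE 0.31, adjusted p = 0.0135), followed by Egr1 at 2.14 (adjusted p = 0.0324), Junb at 2.06 (adjusted p = 0.0374), Nr4a1 at 1.65 (adjusted p = 0.0358), Jun at 1.5 (adjusted p = 0.0389) and Jund at 0.98 (SE 0.05, adjusted p = 5.29e-12). Fos, at 1.83 (SE 0.46, adjusted p = 0.0809), and Fosb, at 1.09 (adjusted p = 0.0571), missed the threshold. Most of these calls needed sham 2: without it only Jund remained called, with Atf3 at 3.36, Egr1 at 2.19, Junb at 2.15, Nr4a1 at 1.72 and Jun at 1.60, while Fos passed without sham 1, at 2.13, or without sham 3, at 1.39. Fosb likewise passed without sham 1 or sham 3, at 1.31 and 0.92. Fitted without the library block, all differences but that of Fosb passed, 7 in number.

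Endothelial-like cells, the lining of the vessels that smooth muscle cells wrap, were the third class compared. Here 7 of 8 genes were higher in smooth muscle-like cells and none lower, where 55.2% of 11798 genes differed (29.4% higher and 25.9% lower). The log2 differences were 3.96 (SE 0.47, adjusted p = 0.0149) for Egr1, 3.92 (SE 0.41, adjusted p = 0.0125) for Fos, 3.51 (adjusted p = 0.0298) for Atf3, 3.51 (adjusted p = 0.00334) for Junb, 2.52 (adjusted p = 0.0341) for Nr4a1, 1.91 (SE 0.12, adjusted p = 1.64e-12) for Jun and 0.60 (adjusted p = 0.00053) for Jund. Fosb, at 2.57 (adjusted p = 0.054), did not pass, although it did without sham 1, at 3.18, or without sham 2, at 2.13. Atf3 lost its call without sham 3, at 3.27, and Jund without sham 2, at 0.37. The scale of the fit matters for small differences such as that of Jund: scaled to total UMIs in place of TMM factors, the median over all genes moved from 0.03 to -0.57, Jund stood at 0.00 and Nr4a1 at 1.93. Smooth muscle-like cells also had the highest share of mitochondrial UMIs of these classes, with library medians of 11.5 to 13.3% against 9.01 to 9.92% in pericyte-like, 6.68 to 8.36% in endothelial-like and 4.76 to 5.13% in microglia-like cells. Their summed heat shock genes, a group that dissociation also induces, stood at 8829 to 9608 CPM, against 6706 to 9492 in pericyte-like, 5765 to 6373 in endothelial-like and 5099.7 to 6204 CPM in microglia-like cells. The part of either in the differences was not tested, but among cells with at most 10% mitochondrial UMIs 3 genes were called over pericyte-like cells (Atf3, Egr1 and Jund), and Jun, at 1.56, Junb, at 2.21, and Nr4a1, at 1.69, missed the threshold with differences as large as before.

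**Figure D3:**
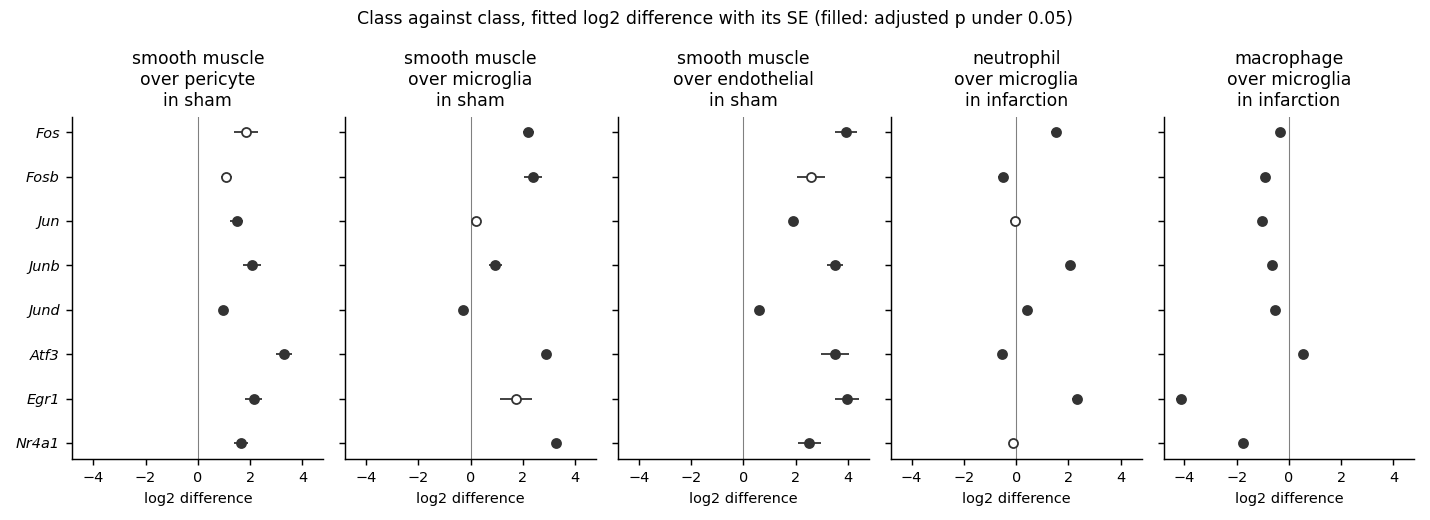
Differences between cell classes within a group for each gene, as log2 difference ± SE from the edgeR fits, in 5 panels (smooth muscle-like over pericyte-like, microglia-like and endothelial-like cells in sham; neutrophil-like and macrophage-like over microglia-like cells in infarction). Filled points have an adjusted p under 0.05, as for Atf3 in smooth muscle-like over microglia-like cells at 2.89 and for Egr1 in macrophage-like over microglia-like cells at -4.13.

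The wider early response was read from lists of related genes; values after gene names are log2 differences, all past the threshold. The 41 other immediate early genes gave 29 higher and 2 lower of 35 tested (median log2 1.48, -0.03 over all genes) in smooth muscle-like over pericyte-like cells. They included the growth factor feedback inhibitor Errfi1 at 1.68, the small GTPase Rhob at 1.32 and the antiproliferative Tob1 at 1.05, while the kinases Sik1, at -0.71, and Plk3, at -0.59, were lower. Over microglia-like cells the same list gave 20 higher and 9 lower of 36 tested (median log2 0.85, 0.03 over all genes), and over endothelial-like cells 22 higher and 9 lower of 36 tested (median log2 1.59, 0.03 over all genes). The 26 other bZIP genes, which encode possible dimer partners, gave 13 higher and 6 lower of 23 tested (median log2 0.25, -0.03 over all genes) in smooth muscle-like over pericyte-like cells, with Cebpd at 1.30, Nfil3 at 1.72 and the small Maf protein Maff at 1.78, against Jdp2, an AP-1 repressor, at -2.23. The 27 genes of the MAP kinase and serum response factor route, upstream of Fos and Jun, did not share a direction: 7 higher and 5 lower of 24 tested (median log2 -0.16, -0.03 over all genes), with the kinase Map3k8 at 1.63 and Srf at 0.51. The 16 phosphatases and feedback inhibitors of that route, themselves induced by it, were also divided: 5 higher and 7 lower of 15 tested (median log2 -0.50, -0.03 over all genes), with Dusp8 at 1.44 and Dusp14 at 0.85 higher and Spry4 at -2.82 and Spred1 at -2.44 lower. The 22 genes known to respond to AP-1 gave 6 higher and 6 lower of 14 tested (median log2 -0.42, -0.03 over all genes), with Vim at 1.59 and Timp1 at 1.05 higher and Ccnd1 at -1.68 and Hmox1 at -3.76 lower. The 11 heat shock genes gave 8 higher and 0 lower of 10 tested (median log2 0.34, -0.03 over all genes), with Dnajb1 at 0.91 and Hspa8 at 0.71.

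In the infarction libraries the class order changed among the 7 classes with at least 20 cells in all 3 of them, with neutrophil-like cells high for Egr1 and Junb and macrophage-like cells high for Atf3. In neutrophil-like cells, Egr1 was 1258, 1044 and 920.3 CPM in infarction 1, 2 and 3 and Junb 3329.6, 3296 and 2844 CPM, the latter at the level of sham smooth muscle-like cells. Macrophage-like cells had Egr1 at 18.5, 16.2 and 12.8 CPM, the lowest mean of the classes compared, but overlapping dendritic cell-like cells (19.9 ± 6.84). Atf3 in macrophage-like cells was 483, 455 and 554 CPM, the highest. Microglia-like cells were between neutrophil-like and macrophage-like cells for Egr1, at 307, 409.5 and 375 CPM, and close to macrophage-like cells for Atf3, at 453, 425 and 476 CPM. Fos was highest in endothelial-like cells (664 ± 209.9 CPM), followed by neutrophil-like (594 ± 47.6), oligodendrocyte-like (548 ± 68.0), dendritic cell-like (431 ± 45.5) and microglia-like cells (361 ± 101), each within the spread of the class above it, and lowest in T or NK cell-like cells (134 ± 37.5). Jun ran from 950.1 ± 589 CPM in endothelial-like cells down to 75.6 ± 3.85 in dendritic cell-like cells. Nr4a1 led in microglia-like cells at 153 ± 14.1 CPM, ahead of dendritic cell-like cells at 120.4 ± 6.45, and Jund again in T or NK cell-like cells at 677 ± 106.

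Within the infarction libraries, 5 of 9 genes tested were higher in neutrophil-like than in microglia-like cells and 2 were lower, where 76.2% of 10316 genes differed (34.8% higher and 41.4% lower). Fosl1, a Fos family gene without a transactivation domain, had the largest log2 difference, 4.46 (SE 0.26, adjusted p = 1.05e-10), from 21.8, 23.5 and 20.5 CPM in neutrophil-like against 2.36, 1.46 and 0.979 CPM in microglia-like cells. Egr1 differed by 2.31 (SE 0.18, adjusted p = 1.37e-08), Junb by 2.07 (SE 0.18, adjusted p = 1.83e-08) and Fos by 1.51 (adjusted p = 5.24e-06), while Atf3, at -0.54 (adjusted p = 0.00512), and Fosb, at -0.52 (adjusted p = 0.0235), were lower. Both of the lower calls were lost without infarction 3, with Atf3 at -0.27 and Fosb at -0.18. Jund, the fifth higher gene at 0.42 (adjusted p = 0.011), changed direction with the scaling: with total UMIs it was -0.33, and the median over all genes moved from -0.22 to -0.98, so its direction depends on the scaling. Jun, at -0.06 (adjusted p = 0.806), and Nr4a1, at -0.13 (adjusted p = 0.413), did not pass with TMM factors and were lower with total UMIs, at -0.81 and -0.88; Jun also passed without infarction 1, at -0.35. Against the 246 homeostatic microglia-like cells of the infarction libraries in place of the whole class, Atf3 was higher in neutrophil-like cells, at 1.57, Nr4a1 was at 1.34 and Fosb at 0.17. Neutrophil-like cells were shallow, with medians of 1614 to 2207 UMIs against 7359 to 16682 in microglia-like cells, and thinning left out most of them. An Egr1 UMI was present in 67.6% ± 6.50 of those deep enough to be thinned (62.6% of all, unthinned). In macrophage-like cells the share was 2.93% ± 0.386 (13.8% unthinned). Heat shock genes were lower in neutrophil-like cells, with 1 higher and 7 lower of 10 tested (median log2 -1.42, -0.22 over all genes). Other immediate early genes gave 17 higher and 11 lower of 35 tested (median log2 0.40, -0.22 over all genes), with Btg1 at 3.16 and Plk3 at 2.33 higher and Myc at -2.71 lower. Other bZIP genes gave 15 higher and 5 lower of 22 tested (median log2 1.35, -0.22 over all genes), among them Ddit3 at 4.27, Cebpd at 3.40 and Crem at 3.22.

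Macrophage-like cells of the infarction libraries had less of most of these genes than microglia-like cells: 1 of 9 was higher and 7 were lower, where 63.7% of 11510 genes differed (31.5% higher and 32.2% lower). Egr1 was lower by a log2 difference of -4.13 (SE 0.19, adjusted p = 3.73e-05), the largest, followed by Nr4a1 at -1.77 (SE 0.12, adjusted p = 1.98e-06) and Jun at -1.02 (SE 0.11, adjusted p = 0.000145). Fosb was at -0.91 (adjusted p = 6.83e-07), Junb at -0.66 (adjusted p = 0.0143), Jund at -0.52 (adjusted p = 0.000149) and Fos at -0.34 (adjusted p = 0.012). Atf3 alone was higher, by 0.53 (SE 0.06, adjusted p = 1.65e-05), although with total UMIs it was 0.14 and not called. Against the 246 homeostatic microglia-like cells alone, Atf3 was at 2.56 and Nr4a1 at -0.59, both called, while Fosb, at -0.27 (adjusted p = 0.172), and Fos, at -0.42 (adjusted p = 0.193), lost their calls. Fosl1, at 0.17 (adjusted p = 0.616), did not pass. Junb lost its call without infarction 2, at -0.61, and Fos without infarction 1, at -0.33. Other immediate early genes were lower too, with 7 higher and 21 lower of 36 tested (median log2 -0.57, -0.02 over all genes), as were the MAP kinase phosphatases and feedback inhibitors, with 2 higher and 10 lower of 14 tested (median log2 -1.08, -0.02 over all genes). Genes known to respond to AP-1 gave 11 higher and 4 lower of 19 tested (median log2 1.42, -0.02 over all genes).

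Between groups, microglia-like cells showed Atf3, Fosb and Nr4a1 higher and Fos, Jun and Junb lower after infarction: 3 higher and 3 lower of 8 genes tested, where 63.2% of 10248 genes changed (31.5% higher and 31.8% lower). Atf3 went from 92.8, 118 and 89.5 CPM in sham 1, 2 and 3 to 453, 425 and 476 CPM in infarction 1, 2 and 3, without overlap, a log2 change of 2.12 (SE 0.11, adjusted p = 3.4e-07). Fosb went from 83.2, 50.6 and 54.9 to 175, 181 and 212 CPM, a log2 change of 1.59 (SE 0.18, adjusted p = 0.00018). Nr4a1 went from 91.3, 72.6 and 53.8 to 156, 137 and 165 CPM, a log2 change of 1.07 (SE 0.18, adjusted p = 0.00135). These 3 genes were higher in every infarction library than in any sham library. Fos went the other way, from 1164, 884 and 746 to 287, 319.8 and 476 CPM, at -1.41 (SE 0.25, adjusted p = 0.00395), and Jun from 2006, 1566 and 1733 to 583, 728 and 871 CPM, at -1.33 (SE 0.15, adjusted p = 0.000161), again without overlap. Junb, from 2216, 1369 and 1924 to 1035, 1389 and 1408 CPM, overlapped between groups and passed narrowly at -0.57 (SE 0.20, adjusted p = 0.0475), a call lost without sham 1 (-0.41), without sham 3 (-0.53) or without any 1 of the infarction libraries (-0.43 to -0.62), and in 14 of its 19 alternatives in all. Jund, at -0.75 (adjusted p = 0.0869), and Egr1, at -0.16 (adjusted p = 0.776), did not pass. Sham 2 stood low for both, with Jund at 736, 345 and 632 and Egr1 at 514, 178 and 498 CPM in the sham libraries, and without it they did, at -1.01 and -0.52. Fosl1 was nearly absent in sham (0, 0 and 0.1 CPM), reached 2.36, 1.46 and 0.979 CPM after infarction, and did not pass the filter on low counts. The thinned share of cells with an Atf3 UMI went from 8.95% ± 0.865 (14.5% unthinned) to 42.5% ± 3.95 (68.5% unthinned), and that of Fos from 44.4% ± 5.06 (50.5% unthinned) to 39.8% ± 6.22 (70.0% unthinned). At least 5 of the 10 genes were present in 25.6, 12.1 and 19.1% of sham and 28.2, 29.2 and 38.3% of infarction microglia-like cells.

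The class held different clusters in each group, and the changes did not all hold within them. Most infarction microglia-like cells (1986 of 2258) were in a cluster with Ccl4 and cell cycle genes such as Mki67 among its leading genes and without Tmem119 or P2ry12 among its markers, a cluster with 98 sham cells. Most sham cells were in a pair of clusters that had both of these homeostatic markers, with 2421 sham and 246 infarction cells, and in a shallow cluster of 760 sham cells. Within the pair of homeostatic clusters, the log2 change was 0.11 for Atf3, -0.03 for Nr4a1 and 1.10 for Fosb, and none of the 3 passed. Fos was at -1.32 and Junb at -0.18, neither called, and Jun alone kept its call. In the Ccl4 cluster, Fosb was 175, 187 and 222 CPM in the infarction libraries and 369 in sham 3, the only sham library with at least 20 cells there, and Nr4a1 was 157, 148 and 171 against 297. Atf3 in that cluster was 456, 463 and 507 CPM against 219.8 in sham 3, and Fos 284, 327 and 474 against 956 CPM. The sham 3 cells of the cluster thus had more Fosb, Nr4a1 and Fos than any infarction library, and less Atf3. With 1 sham library there is no test. Summed over the list, microglia markers in the class were 18904 to 22471 CPM in sham and 10273 to 11913 in infarction, macrophage markers 99.0 to 104 and 2203 to 2595, and smooth muscle markers 983 to 1955 and 4.12 to 5.24. Of the 12 macrophage markers found in the gene lists, 8 had a UMI in every sham library of the class and 12 in every infarction library; of the 10 smooth muscle markers 10 and 5 did, with Actg2 and Pln at 0 after infarction. Their part in these changes was not tested. By the median of 3 tracers (Gpnmb, Fabp4 and Arg1), free macrophage RNA was estimated to supply up to 9.41% of the Atf3 measured in infarction microglia-like cells. An unnamed cluster with microglia markers and leading genes of the cell cycle and Cox6a2 (1433 infarction cells), left out of the class, had Fos at 98.8 ± 7.84 (n = 3) and Atf3 at 63.4 ± 9.44 (n = 3) CPM. It was left out because it was shallow (median 2583 UMIs) with no microglia marker among its leading genes. The shallow cluster of mostly sham cells (median 987 UMIs) had C1qa among its leading genes and stayed in the class. With doublets kept, which changed the clustering, a cluster led by Cox6a2 (1533 infarction and 54 sham cells) had 8 microglia markers and was part of the class. Nr4a1 in the class was then at 0.11 and not called, and the part of that cluster was not tested.

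**Figure D4:**
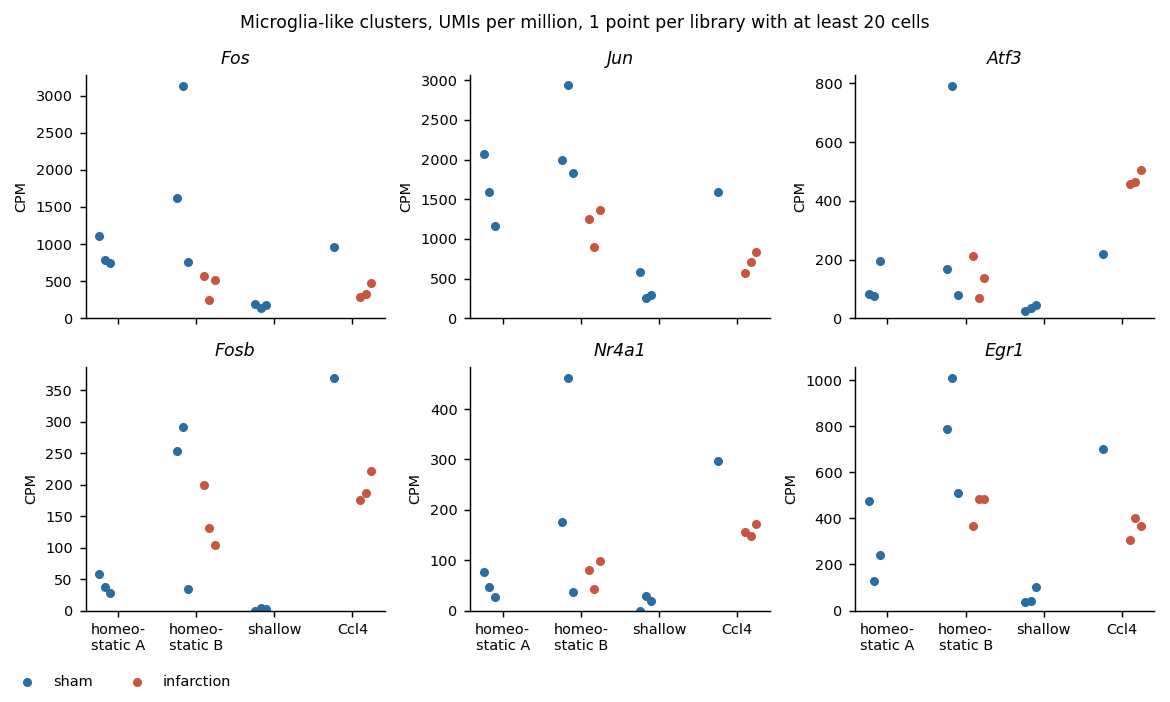
Levels of 6 genes in the 4 microglia-like clusters, as CPM of the cluster sum, for each library with at least 20 cells in the cluster (sham blue, infarction red). Homeostatic A and B are the pair with Tmem119 and P2ry12, and B is the one both groups share. Atf3 in the cluster with Ccl4 is 456, 463 and 507 CPM in the infarction libraries. In the homeostatic cluster that both groups share it is 169, 792 and 80.8 CPM in sham and 214, 69.4 and 138 CPM in infarction.

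Related genes in microglia-like cells are given by list, and each count stands beside the 63.2% of all genes that changed in this fit. Log2 changes follow the names of genes that passed. Other early genes gave 19 higher and 6 lower of 37 tested (median log2 0.51, -0.04 over all genes), with Klf4 at 1.42, Nr4a2, a relative of Nr4a1, at 1.33 and Errfi1 at 1.25 higher, and Cyr61 at -5.29 and Ctgf at -5.10, both matricellular genes abundant in mural cells, lower. Other bZIP genes gave 14 higher and 5 lower of 22 tested (median log2 0.67, -0.04 over all genes), with Batf, which pairs with Jun proteins, at 1.97, Mafk at 1.62 and Nfe2l2 at 1.04 higher and Maf at -2.08 lower. Genes known to respond to AP-1 gave 15 higher and 1 lower of 17 tested (median log2 2.01, -0.04 over all genes), including the adhesion receptor Cd44 at 5.62 (SE 0.22, adjusted p = 1.70e-07), the growth factor Hbegf at 3.38 and the cytokine Il6 at 1.66. Phosphatases and feedback inhibitors gave 8 higher and 4 lower of 13 tested (median log2 1.16, -0.04 over all genes), with Dusp2 at 4.81 higher and Dusp6, which acts on ERK, at -2.16 lower. The MAP kinase route itself gave 3 higher and 5 lower of 20 tested (median log2 -0.06, -0.04 over all genes). Heat shock genes gave 7 higher and 2 lower of 10 tested (median log2 0.88, -0.04 over all genes), with Hspd1 at 1.86 higher and the inducible Hspa1a at -1.54 lower.

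Macrophage-like cells shared the higher Atf3 and the lower Fos and Jun: 2 of 9 genes were higher and 4 lower, where 54.1% of 10726 genes changed (27.8% higher and 26.3% lower). Atf3 went from 169, 260.5 and 104 to 483, 455 and 554 CPM, a log2 change of 1.88 (SE 0.33, adjusted p = 0.00361). Fos went from 1359, 1586 and 815 to 164, 239 and 241 CPM, a log2 change of -2.14 (SE 0.30, adjusted p = 0.00122), and Jun from 1561, 1701 and 1616 to 269.9, 269 and 271 CPM, at -2.16 (SE 0.10, adjusted p = 2.13e-08). Egr1 went from 128, 59.0 and 46.1 to 18.5, 16.2 and 12.8 CPM, at -1.87 (SE 0.38, adjusted p = 0.00567), a call lost at Leiden resolution 2.0, at -1.35 (adjusted p = 0.0988). Jund went from 580.3, 361 and 559 to 179.6, 175 and 199 CPM, at -1.0 (SE 0.15, adjusted p = 0.000183). None of these 5 overlapped between groups. Smooth muscle markers in the class summed to 930 to 2254 CPM in sham and 1.07 to 1.97 CPM in infarction. In sham smooth muscle-like cells themselves they summed to 66526 to 74261 CPM, with Egr1 at 1132 ± 224 CPM. The part of free smooth muscle RNA in these changes, among them the low Egr1 levels, was not tested. Fosl1 had no UMI in the sham libraries and 1.98, 1.11 and 1.01 CPM after infarction (133 UMIs). Against a floor of 3 UMIs over the sham class, 1.06 CPM, that is at least 1.29-fold higher. Its call (adjusted p = 0.0334, and 0.0107 to 0.0866 over the 11 alternatives in which it could be fitted) was lost without any 1 sham library (adjusted p = 0.0699 to 0.0866). Fosb, at -0.29 (adjusted p = 0.612), Nr4a1, at -0.34 (adjusted p = 0.704), and Junb, at -0.25 (adjusted p = 0.188), did not pass. They did without sham 3, whose Fosb and Nr4a1 were low, with Fosb at -0.61, Nr4a1 at -0.77 and Junb at -0.34; Junb also passed without infarction 1, at -0.45. Sham macrophage-like cells were almost all in a cluster with Cxcl13 and Lyve1 among its leading genes, which held 20 infarction cells, and those of infarction in clusters led by Pf4 (4163 cells) and Mmp12 (2476 cells) with no sham cell. Macrophage markers summed to 2109 to 3119 CPM in sham and 13941 to 17449 in infarction, and microglia markers to 8799.9 to 11046 and 394 to 503 (10 and 12 of 12 macrophage markers and 11 and 12 of 13 microglia markers had a UMI in every library, with Arg1, Siglech and Olfml3 at 0 in sham), so the groups and the kinds of cell in the class cannot be told apart. Both infarction clusters had like levels, with Atf3 at 459 ± 55.9 (n = 3) and 557 ± 77.9 (n = 3) CPM and Egr1 at 15.1 ± 3.70 (n = 3) and 16.2 ± 3.08 (n = 3) CPM. Unnamed infarction clusters led by Fcnb, a monocyte gene, and Ccl17 also had high Atf3, 442 ± 31.2 (n = 3) and 575 ± 110.3 (n = 3) CPM.

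In the same class, other bZIP genes gave 12 higher and 4 lower of 22 tested (median log2 0.52, -0.01 over all genes), with Cebpb at 2.06 and Atf4, which activates Atf3 in the integrated stress response, at 1.56 higher and Maf at -3.04 lower. Genes known to respond to AP-1 gave 11 higher and 1 lower of 18 tested (median log2 2.89, -0.01 over all genes), with Timp1 at 3.11 and Vim at 2.76, although Fos and Jun were lower. Other immediate early genes were divided, with 12 higher and 13 lower of 35 tested (median log2 0.36, -0.01 over all genes), among them the kinases Plk2 at 4.07 and Plk3 at 2.60 against Zfp36l1 at -3.49. The MAP kinase route gave 3 higher and 10 lower of 23 tested (median log2 -0.50, -0.01 over all genes), and its phosphatases and feedback inhibitors 1 higher and 6 lower of 13 tested (median log2 -0.38, -0.01 over all genes), with Dusp6 at -3.56 and Dusp1 at -1.55. Heat shock genes gave 6 higher and 3 lower of 10 tested (median log2 0.60, -0.01 over all genes), with Hspa1a at -5.58 and Dnajb1 at -2.33 lower. Whether infarction changed a gene differently in macrophage-like and microglia-like cells was tested as an interaction. Of 9 genes, 1 passed, where 34.1% of 11344 genes did (17.4% higher and 16.7% lower): Jun was lowered more in macrophage-like cells, by a further log2 of -0.79 (SE 0.18, adjusted p = 0.00605), a call lost without sham 3, at -0.83. Fosb, at -1.74 (adjusted p = 0.0507), and Egr1, at -1.73 (adjusted p = 0.0875), missed the threshold, and Atf3 differed by -0.14 (SE 0.22, adjusted p = 0.666) and Fosl1 by 2.07 (adjusted p = 0.788). Without sham 3, 4 genes passed (Fosb at -2.17, Egr1 at -2.23, Nr4a1 at -1.70 and Atf3 at -0.42), without sham 2 Fosb, at -1.23, and Junb, at 0.71, passed beside Jun, and without infarction 2 Fos did, at -0.80.

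T or NK cell-like cells showed 2 genes higher and 2 lower of 7 tested, where 8.13% of 4513 genes changed, 4.9% higher and 3.24% lower. Fosb went from 164, 173 and 194 to 332, 284 and 261 CPM, a log2 change of 0.80 (SE 0.17, adjusted p = 0.00399), and Egr1 from 53.9, 62.5 and 42.3 to 141, 105 and 76.1 CPM, at 1.02 (SE 0.26, adjusted p = 0.0168). Jun went from 525, 758 and 535 to 88.7, 193 and 225 CPM, at -1.76 (SE 0.33, adjusted p = 0.0196), and Fos from 245, 279 and 241 to 91.4, 161 and 151 CPM, at -0.84 (SE 0.19, adjusted p = 0.00668). None of the 4 overlapped between groups. By the estimate from Tagln, Acta2 and Myh11, free smooth muscle RNA could supply up to 24.1% of the Fos and 41.4% of the Egr1 measured in the sham class. Junb (1478, 1404 and 1457 to 1607, 1536 and 879.7 CPM), Jund (970.2, 421 and 962 to 767, 561 and 704 CPM) and Nr4a1 (129, 107 and 112 to 108, 141 and 108 CPM) overlapped between groups and did not pass, and Atf3 was too low to test. With 288 to 337 cells a group, single libraries decided some calls: 2 genes passed without sham 1, where Jun was at -1.88 and Egr1 at 1.0, and 2 without infarction 2, where they were at -1.85 and 1.04. Egr1 also missed without sham 3, at 0.89, or infarction 1, at 0.79, and Fos without sham 2, at -0.68. Fosb passed in each of these fits. Jun also missed among cells with at most 10% mitochondrial UMIs, at -1.77 (adjusted p = 0.0686), and Egr1 with DESeq2, at 1.06 (adjusted p = 0.0543). Other immediate early genes gave 5 higher and 1 lower of 23 tested (median log2 0.14, -0.02 over all genes), with Nfkbiz at 1.44 and Nr4a2 at 1.11 higher, and other bZIP genes 5 higher and 0 lower of 10 tested (median log2 0.75, -0.02 over all genes), with Ddit3 at 1.55 and Batf at 0.94. Heat shock genes gave 0 higher and 5 lower of 10 tested (median log2 -0.57, -0.02 over all genes), with Hspa1a at -3.81 and Dnajb1 at -1.53, and the median mitochondrial share was 4.75 to 5.76% in sham and 6.84 to 9.28% in infarction.

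In the oligodendrocyte-like class, Fosl1 appeared after infarction: 0, 0 and 0 CPM in the sham libraries against 26.3, 41.2 and 29.3 CPM (15, 32 and 34 UMIs) in infarction 1, 2 and 3. Against the floor of 3 UMIs over the sham class, 1.34 CPM, this was at least 24.0-fold higher (adjusted p = 0.0051). Atf3, from 25.1, 50.6 and 19 to 244, 147 and 86.1 CPM, changed by 2.28 (SE 0.53, adjusted p = 0.0251). These were the 2 called of 9 tested, both higher, where 16.9% of 6765 genes changed, 9.86% higher and 6.99% lower. Fos, from 1323, 959 and 175 to 594, 581 and 470.1 CPM, and Jun, from 599, 827 and 248 to 987, 822 and 546 CPM, overlapped and did not pass; sham 3 was lowest for both. The class was mixed. The myelin gene Mbp was at 7828, 8221 and 10126 CPM in sham and 436, 1014 and 3899 CPM in infarction. At a finer clustering, 394 of its 472 infarction cells (83.5%) and 37 of its 261 sham cells (14.2%) formed an unnamed cluster led by Gal, Vgf and Gap43, which encode a pair of secreted neuropeptide precursors and a growth cone protein, and Fosl1 there was 27.3, 44.6 and 44.4 CPM in the infarction libraries. In the remaining oligodendrocyte-like cluster Fosl1 had no UMI in any sham library, and 3 and 1 UMIs in infarction 2 and 3, so most Fosl1 UMIs of the class (15, 29 and 33) were in the Gal cluster. By the median of 3 neutrophil tracers, free neutrophil RNA was estimated to supply up to 0.0528% of the Fosl1 of the class. Both calls rested on single libraries: without infarction 2 none of the 9 passed, with Fosl1 at an adjusted p of 0.0585 (the highest over its alternatives, the lowest being 1.36e-05) and Atf3 at 2.35, and Atf3 also missed without sham 1, at 2.12, sham 3, at 1.94, or infarction 1, at 1.77. Without sham 3, Junb, at -1.69, and Nr4a1, at -1.56, passed as lower. AP-1 responsive genes gave 5 higher and 0 lower of 10 tested (median log2 2.45, -0.01 over all genes), with Timp1 at 3.45, and other immediate early genes 6 higher and 0 lower of 25 tested (median log2 0.40, -0.01 over all genes), with Myc at 2.20.

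In endothelial-like cells no gene passed the test. Mean levels after infarction were higher for 6 of the 8 genes tested and lower for Nr4a1, at a log2 change of -0.86 (adjusted p = 0.598), and Jund, at -0.19 (adjusted p = 0.892). Egr1 was 148, 130.4 and 53.5 CPM in sham and 649, 236 and 341 CPM in infarction, Fosb 141, 65.0 and 40.1 and 537, 127 and 311 CPM, and Atf3 132, 84.8 and 59.5 and 389, 115 and 359 CPM. Infarction 2 was the lowest infarction library for each, and the groups overlapped for Fosb and Atf3 but not for Egr1. The edgeR quasi-likelihood test called 0 of 8, where 8.35% of 5855 genes changed (3.84% higher and 4.51% lower), with log2 changes of 2.14 (SE 0.70, adjusted p = 0.175) for Fosb, 1.99 (SE 0.54, adjusted p = 0.111) for Egr1 and 1.8 (SE 0.49, adjusted p = 0.102) for Atf3. These 3 had an unadjusted p under 0.05, and DESeq2's Wald test called 2, Egr1, at 2.02, and Atf3, at 1.79. Without infarction 2, Atf3 passed, at 2.15. Other immediate early genes gave 6 higher and 0 lower of 25 tested (median log2 0.30, -0.0018 over all genes), with Myc at 3.53 and Gadd45b at 1.99. The median mitochondrial share was 6.68 to 8.36% in sham and 11.8 to 14.4% in infarction, and its part was not tested.

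**Figure D5:**
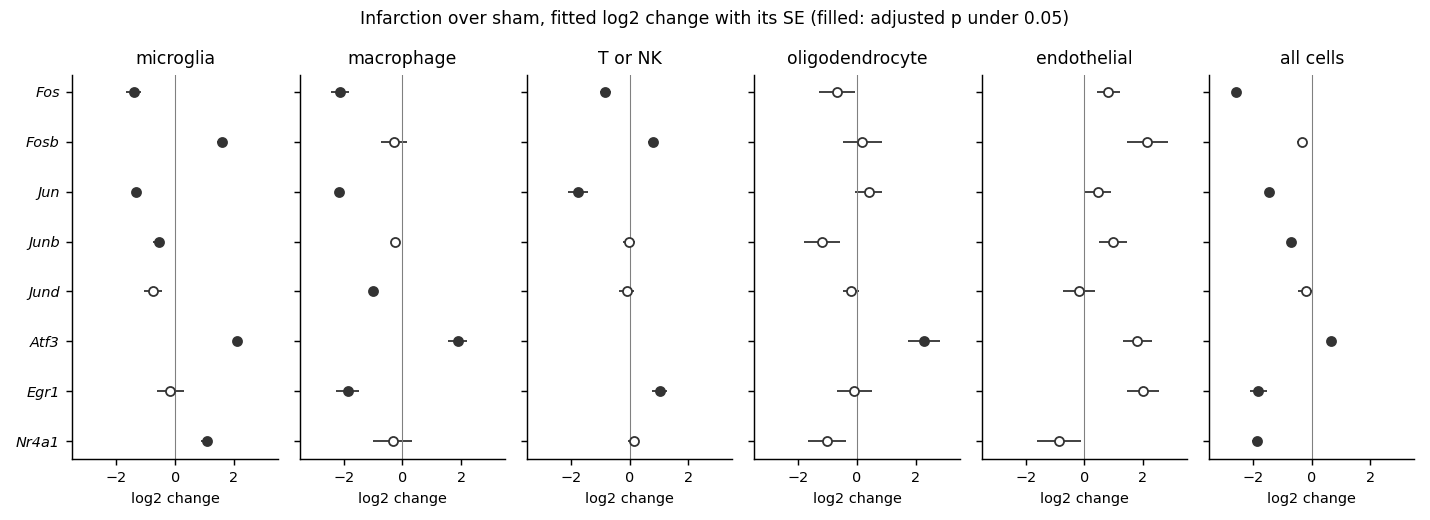
Change with infarction for each gene, as log2 change ± SE from the edgeR fits, in 5 cell classes and in all cells; filled points have an adjusted p under 0.05. Atf3 lies above 0 in each panel where it was tested, from 0.67 in all cells to 2.28 in oligodendrocyte-like cells, and Jun lies below 0 in microglia-like (-1.33), macrophage-like (-2.16) and T or NK cell-like cells (-1.76).

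Summed over all cells of a library, the near absence of smooth muscle-like cells from the infarction libraries and the changes within classes come together and cannot be told apart. Here 2 of 9 genes were higher and 5 lower, where 71.3% of 14613 genes changed, 33.2% higher and 38.1% lower. Fos was 2333 ± 25.2 CPM in sham and 284 ± 23.1 in infarction, a log2 change of -2.58 (SE 0.08, adjusted p = 7.49e-06), and Egr1 668 ± 82.6 and 135 ± 48.8 CPM, at -1.83 (SE 0.29, adjusted p = 0.00192). Nr4a1 changed by -1.86 (adjusted p = 0.000146), Jun by -1.47 (adjusted p = 3.72e-05) and Junb by -0.69 (adjusted p = 0.00314). Fosl1, with 45 UMIs in all sham cells and 667 in all infarction cells, rose by 4.19 (adjusted p = 0.000106). Atf3 was higher, with 371 ± 79.7 against 427 ± 39.9 CPM, at 0.67 (adjusted p = 0.0114), but not with total UMIs, at 0.20. Among cells with at most 10% mitochondrial UMIs, Junb turned to 0.12 and Egr1 missed the threshold at -0.97. Fosl2 had 16 and 30 UMIs in all and was tested in none of the classes. Fosb also passed, as lower, without sham 3, at -0.49, and Jund without sham 2, at -0.43.

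Over 64 sums of a library and class, which share libraries and depth, the levels of some of these genes ran together more than others. Log2 levels of Fos and Jun had a Pearson r of 0.79, Fos and Egr1 0.68 and Fos and Nr4a1 0.68, while Atf3 followed Fos at 0.51 and Nr4a1 at 0.26. To rank genes of like pattern, unnamed gene models and mitochondrial genes were left out. Among the other genes with a mean of at least 20 CPM, the 6 with a pattern most like that of Fos (Pearson r in parentheses) were Jun (0.79), Cwc15 (0.70), Siva1 (0.70), Egr1 (0.68), Nr4a1 (0.68) and Rcn3 (0.66). Those most like Atf3 were Cebpb (0.75), Zfp36 (0.73), Tuba1c (0.72), Ier3 (0.72), Bri3 (0.70) and Vim (0.68), of which Cebpb encodes a bZIP factor and Zfp36 and Ier3 are immediate early genes. The 2 lists have no gene in common.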

How the data were processed

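Droplet 3′ single-cell libraries (10x Genomics Single Cell 3′ V3.1 kit, per the labels' protocols) were made from 3 sham and 3 infarction samples. The deposited matrices hold raw counts of UMIs for each gene in each barcode; Cell Ranger 3.1.0, CASAVA 1.8 and Seurat 2.3.4 are named in the submitters' processing notes. No source used here names the build or annotation. Library totals were 56416475 to 69924334 UMIs, and every deposited barcode had at least 500 UMIs.

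Cells with at least 500 UMIs, 200 genes and at most 20% mitochondrial UMIs were kept, and doublets (Scrublet score above 0.25) were removed. Cells were clustered with scanpy 1.11.5 (2000 variable genes, 30 components, 15 neighbours, Leiden resolution 1.0) without the 10 genes and the other immediate early genes, 48 genes left out in all. A cluster took a class name when at least 3 markers were found in at least 25% of its cells and were at least 1 log2 unit above the other cells. It stayed unnamed if another class had more markers among its 10 leading genes. A shallow cluster with none of its own markers among its leading genes also stayed unnamed. Shallow meant a median depth below the mean of its cells' library medians divided by 3. Of 29 clusters 24 were named.

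Counts were summed per library and class and tested in R 4.3.3 with edgeR 4.0.16 (quasi-likelihood test, TMM, filterByExpr, robust) and Benjamini-Hochberg adjustment over all genes of a fit, with a threshold of 0.05. Comparisons between classes of the same libraries had the library as a block, since both sums come from 1 library. DESeq2 1.42.0, other scaling, other filters, another clustering and leaving out each library were alternatives. The test was run on simulated counts of microglia-like cells, with the same spread for every gene. That check required only that fitted changes were near the simulated ones, and it covered no other class. CPM are UMIs per 1000000 UMIs of the class sum, so 3 UMIs were taken as the floor for a count of 0. No label says that samples of a group came from separate animals beyond the count of 3 rats with infarction, and the p-values reflect only how far these libraries spread. The 10 genes and all lists were chosen with earlier results of these data known. Named list genes were, in each comparison, up to 3 higher and 3 lower genes with the smallest adjusted p; some are not reported here. Promoter sequences are from RefSeq (GRCr8).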

Additional observations from a re-analysis of the deposited data

Results flagged for a closer look

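The change of Jun with infarction differed between macrophage-like and microglia-like cells by a log2 of -0.79 (SE 0.18, adjusted p = 0.00605, edgeR interaction term), with the larger decrease in macrophage-like cells. Jun was lower in all 3 infarction libraries than in all 3 sham libraries in both classes. What flagged it was the test of the difference between the 2 classes. The call was lost without sham 3. In both classes most sham and most infarction cells lay in different clusters, so the groups and the kinds of cell cannot be told apart.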

How the results depend on the processing

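Across the alternatives, gene-level results counted as unchanged in 1294 cases, lost their call in 89, gained one in 67 and reversed in 15. A change of direction counted as reversed only if the gene was called in the main or the alternative fit. Where neither called the gene, a change of direction is among the 1294. The summed levels of the 10 genes moved by less than the spread between libraries. Leaving out each library in turn, the number of genes called ranged over 7 to 8 in all cells, 5 to 9 in microglia-like, 5 to 8 in macrophage-like, 2 to 4 in T or NK cell-like, 0 to 3 in oligodendrocyte-like and 0 to 1 in endothelial-like cells, 1 to 8, 5 to 7 and 6 to 8 for smooth muscle-like over pericyte-like, microglia-like and endothelial-like cells, 5 to 8 and 7 to 8 for neutrophil-like and macrophage-like over microglia-like cells, and 1 to 4 for the interaction. With microglia-like cells of 1 homeostatic cluster or of both, chosen after seeing the data, 1 gene was called between groups, 4 in the interaction and, for smooth muscle-like over microglia-like cells with 1 cluster, 2; the cause was not tested beyond the fewer cells. Nearly all sham cells of the 1 homeostatic cluster were from sham 3, with few from sham 1 and sham 2. Reversed values with that cluster alone were -0.62 for Fosb, -1.60 for Atf3 and -1.78 for Nr4a1 between groups, and 3.01 for Atf3 and 1.40 for Nr4a1 in the interaction. With both clusters they were -0.031 for Nr4a1 between groups and 1.89 for Atf3 in the interaction. For neutrophil-like over microglia-like cells they were 0.17 for Fosb, 1.57 for Atf3 and 1.34 for Nr4a1 under either choice, since infarction cells fill 1 of these clusters. With total UMIs, also added after seeing the data, 6 genes were called in the interaction, and Jund in neutrophil-like over microglia-like cells was -0.33. With at most 10% mitochondrial UMIs, Junb in all cells was 0.12, 3 genes were called for smooth muscle-like over pericyte-like cells and 2 in the interaction. With no filter on low counts the numbers called were 3 for smooth muscle-like over pericyte-like cells, 1 in endothelial-like cells and 2 in the interaction. The interaction also gave 2 with DESeq2 size factors, at Leiden resolution 2.0 and with cells of at least 2000 UMIs, and DESeq2 called 2 genes in endothelial-like cells. Thinned to 1000 UMIs, the share of cells with a Fos UMI was 85.4% in smooth muscle-like, 32.3% in sham microglia-like, 26.7% in infarction microglia-like and 35.5% in neutrophil-like cells; the smaller depth lowers every share. The causes of the other changes were not tested. Deviations of same-numbered sham and infarction libraries had correlations of 0.02, -0.01 and 0.10, and those of other pairs -0.08 to 0.08. With 3 whole-library sums a group, these values cannot show whether same-numbered libraries share more than a number. The replicate block gave 7, 6, 5, 4 and 2 genes called in all cells, microglia-like, macrophage-like, T or NK cell-like and oligodendrocyte-like cells and 3 in endothelial-like cells. Under it Atf3 in macrophage-like (2.0, adjusted p = 0.0599) and Junb in microglia-like cells (-0.54, adjusted p = 0.0934) were not called. Without the library block, the comparisons of classes called 7, 6, 7, 5 and 7 genes in the order above, losing Jund for smooth muscle-like over microglia-like (-0.38) and endothelial-like cells (0.53), Fosb (-0.43) and Atf3 (-0.45) for neutrophil-like cells and Fos (-0.37) for macrophage-like cells. The oligodendrocyte-like class could not be fitted at Leiden resolution 2.0, where too few cells remained. Depth limited Fosl1 and Fosl2, which had too few UMIs in most classes for a test.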

Other observations

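Ependymal-like cells, which line the ventricles, had at least 20 cells in only 2 libraries of each group and were not tested. Fos stood at 702 ± 60.5 CPM in sham and 1729 ± 766 CPM in infarction (SD, n = 2), and Atf3 at 164 ± 49.1 and 635 ± 172 CPM. At least 5 of the 10 genes were present in 43.6 and 62.5% of thinned ependymal-like cells of the infarction libraries. The estimate of free smooth muscle RNA, from Tagln, Acta2 and Myh11, was up to 89.3% of the sham Fos.

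The 44 neutrophil-like cells of sham 2, the only sham library with at least 20, had Fos at 4578, Junb at 6060.4 and Egr1 at 111 CPM, and 67 of the 69 sham neutrophil-like cells lay in another cluster than those of infarction. With 1 library there is no comparison.

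Jund was lower in sham 2 than in sham 1 and sham 3 in smooth muscle-like, pericyte-like, microglia-like, macrophage-like, T or NK cell-like and endothelial-like cells. In endothelial-like cells, for example, it was 572, 217 and 574 CPM in sham 1, 2 and 3.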
